A study of Saccharomyces cerevisiae with 4 samples.

Results

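Aromatic amino acid synthesis in yeast was described through 10 genes, TRP1 to TRP5, ARO1 to ARO4 and ARO7, which were taken by their systematic names from the 6418 genes of the expression tables. All 10 were listed, and all 10 were among the 6010 genes that averaged 10 or more reads per library, to which the comparisons were limited. RNA-seq was available for 4 strains of Saccharomyces cerevisiae, with 1 library per strain. The strain byMM1827 expressed denAsCas12a, a DNase-dead Cas12a protein, together with ScRNAs directed to the promoter of HED1 and to a synthetic reporter promoter, and byMM1777 was its control without ScRNA. The strain byMM1832 expressed dCas12e with ScRNAs directed to the promoter of GAL7 and to the same kind of reporter promoter, and byMM1736 was its control without ScRNA. A ScRNA is a guide RNA with hairpins that bind MCP, a viral coat protein, which all 4 strains carried as a fusion with the activation domain VP64.

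All strains derived from the MATa strain CEN.PK2-1C. They shared the marker alleles trp1-289, ura3-52 and leu2-3_112 together with his3D1, on a background with SUC2 and MAL2-8c, and in all of them MCP-VP64 had been integrated with TRP1 as the selection marker. The TRP1 values are therefore those of the trp1-289 allele and of the plasmid marker together, which cannot be told apart in a count per gene. According to the study's strain list, the ScRNAs were integrated with HIS3 as the marker, so that byMM1827 and byMM1832 were HIS3 strains while both controls kept his3D1. The presence of the ScRNAs and of HIS3 cannot be told apart within either pair. Between the controls, not only the Cas protein but also the plasmid with the reporter was different. The medium of the RNA-seq cultures is not given in the sources used here.

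The shikimate pathway makes chorismate, the common precursor of tryptophan, phenylalanine and tyrosine. DAHP synthase (ARO3 and ARO4) condenses erythrose 4-phosphate with phosphoenolpyruvate, the multifunctional enzyme Aro1 carries the product through the central steps, and Aro2 makes chorismate. Chorismate mutase (ARO7) turns chorismate towards phenylalanine and tyrosine, whereas anthranilate synthase (TRP2 with TRP3), TRP4, TRP1, TRP3 and TRP5 lead to tryptophan. Gcn4, the activator of general amino acid control, binds TGACTC in many promoters of amino acid synthesis. In classical yeast genetics TRP2, TRP3, TRP4, TRP5, ARO3 and ARO4 belong to general amino acid control, while TRP1 and ARO7 do not.

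The promoters were read from the S288C reference R64 of RefSeq, over 250 bases before to 50 bases after each gene start. The motif TGACTC was searched on both strands (GAGTCA on the other). It occurred in 4 of the 10 members, against 7.96% of 6020 promoters of the same length, and TGACTCA, the longer form that contains it, in 3 members, against 2.72% of all promoters. The windows around the motif are shown because they set TRP4, the member that differed most between libraries, beside TRP2, TRP3 and ARO1. The motif is in capitals.
TRP4, first motif base at position -165 from the gene start: acctacgcagatTGACTCtctaaaaaatga
TRP2, position -162: acagtgatttgcTGACTCattacgattttt
TRP2, position 33: tcaaccggatatTGACTCtctaaagcaatt
TRP3, position -123: tcaatggctcgtTGACTCattctaatctat
ARO1, position -223: ttgtcatgcataTGACTCatcccgaacatg
The sites of TRP3 and ARO1 and the upstream site of TRP2 held TGACTCA, and those of TRP4 and of the start of TRP2 held TGACTC alone. In TRP1, TRP5, ARO2, ARO3, ARO4 and ARO7 these letters were not in the window. Only the exact letters were searched, so variants of the motif, in these windows or in that of TRP4, were not looked for.

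The whole windows of TRP4 and TRP1 are given since these were the members with lower values in both strains with ScRNAs than in their controls. TRP4 (YDR354W) occupies chrIV:1184747-1185889, + strand, with the promoter window chrIV:1184497-1184796, and TRP1 (YDR007W) occupies chrIV:461842-462516, + strand, with the window chrIV:461592-461891.
TRP4: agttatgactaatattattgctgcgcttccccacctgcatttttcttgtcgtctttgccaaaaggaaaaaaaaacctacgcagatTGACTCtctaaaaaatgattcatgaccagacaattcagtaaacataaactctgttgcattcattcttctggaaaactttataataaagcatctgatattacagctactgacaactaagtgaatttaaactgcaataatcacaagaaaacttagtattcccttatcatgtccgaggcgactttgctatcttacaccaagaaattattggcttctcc
TRP1: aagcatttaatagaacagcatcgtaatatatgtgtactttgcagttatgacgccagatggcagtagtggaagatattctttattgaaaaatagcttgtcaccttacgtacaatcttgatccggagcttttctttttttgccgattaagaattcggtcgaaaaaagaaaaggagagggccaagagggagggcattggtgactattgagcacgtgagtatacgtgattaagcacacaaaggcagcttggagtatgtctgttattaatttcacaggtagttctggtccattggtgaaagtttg
The strains sequenced were not of the S288C background, and their own promoters were not analysed here. The TRP1 values also include the plasmid marker, whose promoter was not examined. The other genes of the tryptophan branch are TRP2 (YER090W, chrV:337949-339472), TRP3 (YKL211C, chrXI:36699-38153) and TRP5 (YGL026C, chrVII:446412-448535). The genes up to chorismate are ARO3 (YDR035W, chrIV:521816-522928), ARO4 (YBR249C, chrII:716882-717994), ARO1 (YDR127W, chrIV:704484-709250) and ARO2 (YGL148W, chrVII:226399-227529), and ARO7 is YPR060C (chrXVI:674861-675631), all in R64.

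The library totals ranged from 37275559 to 54013763 counts, and the members had from 1067 counts (ARO7 in byMM1777) to 24084 counts (TRP5 in byMM1827). TPM divides a count by the length of its gene and scales these values to a fixed sum in each library, so that genes can be compared within a library. The libraries differed in the TPM of the median gene. Its log2 ratio was -0.16 for byMM1827 over byMM1777, 0.03 for byMM1832 over byMM1736, -0.22 for byMM1736 over byMM1777 and -0.03 for byMM1832 over byMM1827. The ratios given here are therefore relative to the median gene, which is set at a log2 ratio of 0. Each ratio has a 95% Clopper-Pearson interval of the 2 counts, which covers counting error only, and with 1 library per strain no difference has a replicate check and no p-value was computed. HIS3, the marker integrated with the ScRNAs, had 5309 TPM in byMM1827 against 207 TPM in byMM1777, and 2770 TPM in byMM1832 against 255 TPM in byMM1736. HED1 had 30.3 TPM in byMM1827, where it was a target, against 15.8 TPM in byMM1777, and 8.43 TPM in byMM1832 against 16.6 TPM in byMM1736. GAL7 had 3.53 TPM in byMM1832, where it was a target, against 2.05 TPM in byMM1736, and 2.70 TPM in byMM1827 against 1.62 TPM in byMM1777. The a-specific genes MFA1, MFA2, STE2 and BAR1 ranged from 141 to 1670 TPM, while the alpha-specific genes STE3 and MF(ALPHA)1 ranged from 5.55 to 23.2 TPM, in the 4 libraries of these MATa strains.

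The first enzyme of the pathway was encoded by a pair of genes at similar levels. ARO3, the DAHP synthase inhibited by phenylalanine, had 104 TPM in byMM1827 against 119 TPM in byMM1777, and 140.0 TPM in byMM1832 against 99.0 TPM in byMM1736. It was thus highest in the dCas12e strain with ScRNAs and lowest in its control. ARO4, the isozyme inhibited by tyrosine, had 101 TPM in byMM1827 against 113 TPM in byMM1777, and 138 TPM in byMM1832 against 127 TPM in byMM1736. Within a library the ratio of ARO3 to ARO4, which does not depend on the scaling between libraries, was 1.03 (counting interval from 0.996 to 1.07) in byMM1827, 1.06 (from 1.02 to 1.10) in byMM1777 and 1.02 (from 0.984 to 1.05) in byMM1832. In byMM1736 it was 0.78 (from 0.753 to 0.807), below the intervals of the other 3 libraries. The proteins have 370 residues each in the reference and are identical at 226 of 363 aligned positions (62.3%), and their coding sequences share 0 words of 31 nt.

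ARO1, which encodes the multifunctional shikimate enzyme, had 48.1 TPM in byMM1827 against 52.3 TPM in byMM1777, and 54.7 TPM in byMM1832 against 53.5 TPM in byMM1736. This was one of the narrowest ranges among the members, with a highest value 1.14 times the lowest. ARO2, encoding chorismate synthase, had 291 TPM in byMM1827 against 277 TPM in byMM1777, and 368 TPM in byMM1832 against 318 TPM in byMM1736. The consecutive enzymes were at unequal transcript levels, since ARO2 had from 5.29 (byMM1777) to 6.72 (byMM1832) times the TPM of ARO1. ARO7, chorismate mutase, was the least abundant member, with 31.3 TPM in byMM1827 against 36.6 TPM in byMM1777, and 31.6 TPM in byMM1832 against 27.4 TPM in byMM1736. Its control libraries were the highest and the lowest of the 4.

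The tryptophan branch opens with anthranilate synthase. TRP2, its catalytic subunit, had 183 TPM in byMM1827 against 161 TPM in byMM1777, and 212 TPM in byMM1832 against 167 TPM in byMM1736, so that each strain with ScRNAs was above both controls. TRP3, which encodes its glutamine amidotransferase subunit fused to indole-glycerol-phosphate synthase, had 167.4 TPM in byMM1827 against 166 TPM in byMM1777, and 181 TPM in byMM1832 against 152 TPM in byMM1736. The transcripts of the 2 subunits were close to each other in TPM, with ratios of TRP2 to TRP3 of 1.09 in byMM1827, 0.97 in byMM1777, 1.17 in byMM1832 and 1.10 in byMM1736. TRP5, tryptophan synthase and the last step, had 205 TPM in byMM1827 against 183 TPM in byMM1777, and 207 TPM in byMM1832 against 183 TPM in byMM1736. In TPM the control libraries were nearly equal for this gene, but relative to the median gene byMM1736 was 1.16-fold higher than byMM1777 (counting interval from 1.14 to 1.19).

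TRP4, anthranilate phosphoribosyltransferase, had the widest range. It had 127 TPM (7998 counts) in byMM1827 against 162 TPM (7007 counts) in byMM1777, and 82.0 TPM (4547 counts) in byMM1832 against 142 TPM (8589 counts) in byMM1736. Both strains with ScRNAs were below both controls, and byMM1832 was lowest. The highest value was 1.97 times the lowest, against 1.39 for the median of all genes, and 10.8% of the genes had a wider range than TRP4. TRP1, phosphoribosylanthranilate isomerase and also the plasmid marker, had 312 TPM in byMM1827 against 407 TPM in byMM1777, and 328 TPM in byMM1832 against 399 TPM in byMM1736. It was the most abundant member in 3 libraries and second to ARO2 in byMM1832.

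**Figure D1:**
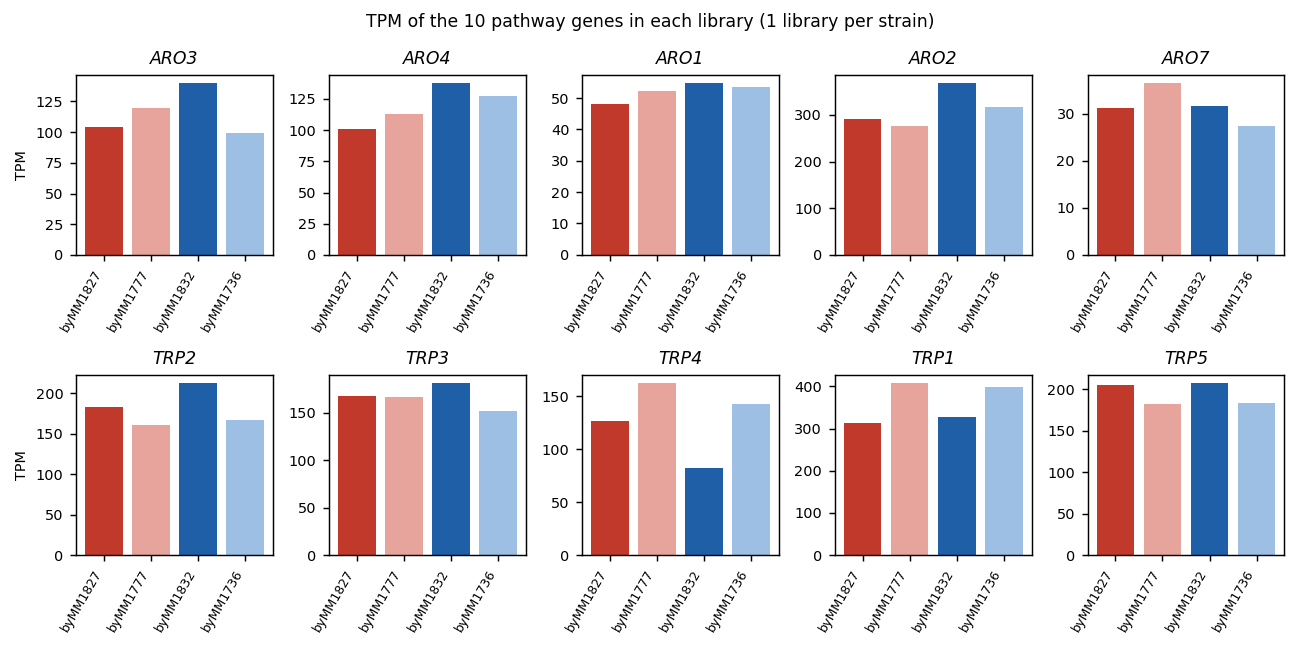
TPM (vertical axes, from 0) of the 10 members in the 4 libraries, with 1 bar per library, so that no error bars can be drawn. TRP4 stands at 82.0 TPM in byMM1832, against 142 TPM in byMM1736, while TRP2, TRP3 and TRP5 are higher in byMM1832 than in byMM1736.

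Each pair compared a strain that had gained both ScRNAs and the HIS3 marker with a control that carried the same Cas protein. Between byMM1827 and byMM1777, 0 of the 10 members passed 1.3-fold relative to the median gene, where 18.7% of the genes tested did (10.9% as higher and 7.75% as lower). None passed 2-fold, which 1.31% of the genes did. The members had a median log2 ratio of 0.02, and the middle 50% of all genes lay from -0.17 to 0.19. TRP2 was 1.27-fold higher relative to the median gene (counting interval from 1.238 to 1.304), followed by TRP5 (1.254-fold, from 1.23 to 1.28), ARO2 (1.18-fold, from 1.15 to 1.20) and TRP3 (1.13-fold, from 1.10 to 1.16). TRP1 and TRP4 were on the other side, at 0.858 (from 0.835 to 0.881) and 0.874 (from 0.846 to 0.903). ARO3, ARO4 and ARO7 had log2 ratios between -0.06 and 0.00, each with an interval that included 0, and ARO1 was at 0.04.

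Between byMM1832 and byMM1736, 2 of the 10 members passed 1.3-fold, 1 higher and 1 lower, where 26.3% of the genes were past it, 11.1% as higher and 15.2% as lower. TRP4 was lower, at 0.563 times its control relative to the median gene (counting interval from 0.543 to 0.583), a log2 ratio of -0.83, and 250 of 6009 genes lay below it. ARO3 was higher, at 1.38-fold (from 1.33 to 1.43). None of the members passed 2-fold, which 3.44% of the genes did. The median log2 ratio of the members was 0.16, and the middle 50% of all genes lay from -0.23 to 0.21. TRP2 was 1.24-fold higher (from 1.21 to 1.27) and TRP3 1.17-fold (from 1.14 to 1.20), whereas TRP1 was at 0.804 (from 0.784 to 0.824). ARO2, ARO7, TRP5 and ARO4 had log2 ratios from 0.08 to 0.18, and ARO1 was at 0.00.

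**Figure D2:**
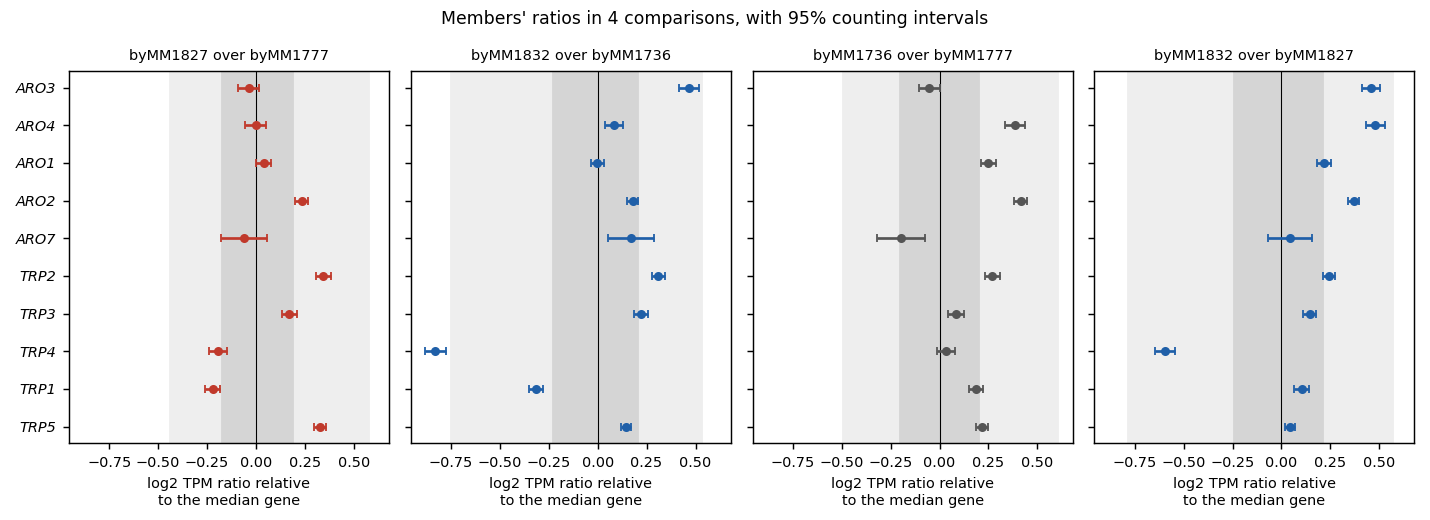
Log2 TPM ratio of each member relative to the median gene (horizontal axes) in 4 comparisons. Points carry 95% counting intervals, and the dark and light bands hold the middle 50% and 90% of all genes tested. TRP4 lies at -0.83 for byMM1832 over byMM1736, outside the light band, and at -0.19 for byMM1827 over byMM1777.

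In both pairs TRP2, TRP3, TRP5 and ARO2 were above the median gene and TRP1 and TRP4 below it, with counting intervals that excluded 0 in all 12 cases. At these counts such intervals were common, since 35.6% of all genes lay clear of 0 on the higher side and 34.6% on the lower side between byMM1827 and byMM1777, and 37.0% and 37.5% between byMM1832 and byMM1736. Relative to ACT1, which was itself 0.38 above the median gene between byMM1827 and byMM1777, TRP2, TRP3, TRP5 and ARO2 turned to values from -0.21 to -0.033 in that pair, while TRP1 and TRP4 stayed below 0 in both pairs. The share of all genes that were clear of 0 on the same side in both pairs was not computed. The 2 pairs share no library. Their controls also differed in these genes, since byMM1736 over byMM1777 gave 0.42 for ARO2, 0.27 for TRP2, 0.22 for TRP5 and 0.08 for TRP3. For ARO2 this was more than the 0.23 between byMM1827 and byMM1777. TRP1 was at 0.19 and TRP4 at 0.03 between the controls. Opposite sides of the median gene in the 2 pairs, with both intervals clear of it and 1 value past 1.3-fold, were found for 9.04% of all genes and for 0 of the 10 members. Only TRP4 and ARO3 passed 1.3-fold in either pair, so the other members could not meet this rule. The difference between the pairs (dCas12e pair minus denAsCas12a pair) was -0.64 on the log2 scale for TRP4 (counting interval from -0.71 to -0.57) and 0.50 for ARO3 (from 0.43 to 0.57). Over all genes this difference had a middle 50% from -0.30 to 0.22 and a middle 90% from -0.93 to 0.59. For TRP1 it was -0.09 and for TRP2 -0.04, with intervals from -0.15 to -0.04 and from -0.09 to 0.01.

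Ratios between members of the same library do not depend on how the libraries are scaled. TRP4 had 0.692 times the TPM of TRP2 in byMM1827 (counting interval from 0.674 to 0.711), against 1.01 in byMM1777 (from 0.975 to 1.04). It had 0.387 times the TPM of TRP2 in byMM1832 (from 0.374 to 0.400), against 0.853 in byMM1736 (from 0.830 to 0.877). Both strains with ScRNAs were thus below both controls, with intervals that did not overlap. The same order held for TRP4 to TRP3 and TRP4 to TRP5, where byMM1827 had 0.756 and 0.617 and byMM1832 had 0.453 and 0.396, against 0.974 and 0.886 in byMM1777 and 0.938 and 0.778 in byMM1736. For TRP4 to TRP2 the intervals of the controls did not overlap each other either. The same was so for TRP4 to TRP5 (from 0.861 to 0.911 in byMM1777 and from 0.759 to 0.798 in byMM1736). Since TRP2, TRP3 and TRP5 were above the median gene in both pairs, these ratios are not independent of those relative to the median gene. The order was not the same against every member. TRP4 had 0.406 times the TPM of TRP1 in byMM1827 (from 0.394 to 0.417), against 0.398 in byMM1777 (from 0.386 to 0.410), and 0.2499 in byMM1832 (from 0.241 to 0.259), against 0.357 in byMM1736 (from 0.348 to 0.367). To ARO4 its ratio was 1.255 in byMM1827, against 1.43 in byMM1777, and 0.596 in byMM1832, against 1.12 in byMM1736. Thus byMM1827 was not below both controls relative to TRP1 or ARO4, and relative to ARO1, ARO2 and ARO7 its interval overlapped that of a control, whereas byMM1832 was lowest relative to all 9 other members, with intervals clear of the other 3 libraries. For the marker gene, the ratio of TRP1 to TRP3 was 1.86 (from 1.82 to 1.91) in byMM1827, against 2.45 (from 2.38 to 2.52) in byMM1777, and 1.81 (from 1.77 to 1.86) in byMM1832, against 2.63 (from 2.56 to 2.69) in byMM1736.

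**Figure D3:**
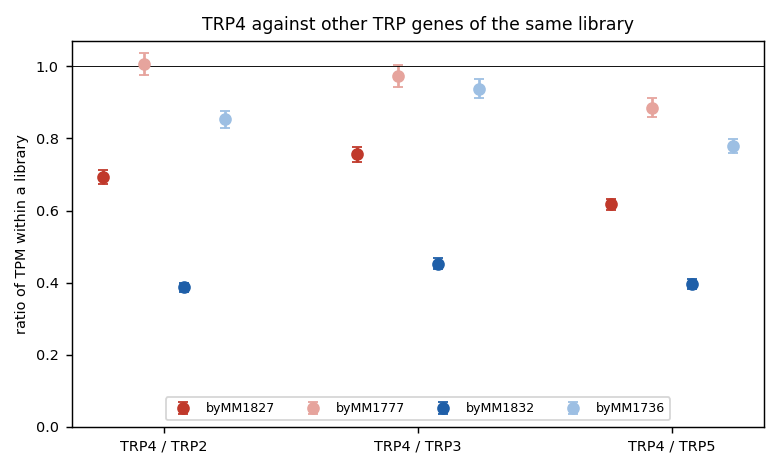
Ratio of the TPM of TRP4 to that of TRP2, TRP3 or TRP5 in the same library (vertical axis), with 95% counting intervals, for the 4 libraries. Both strains with ScRNAs lie below both controls in these 3 ratios, which is not so for TRP4 to TRP1 or to ARO4, with byMM1832 from 0.387 to 0.453.

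The controls were also set against each other, as a measure of how far the members differed where no ScRNA was expressed. Since this comparison uses the same control libraries as the pairs, its values are not independent of theirs. Between byMM1736 and byMM1777, 2 of the 10 members passed 1.3-fold, both higher, where 22.6% of the genes were past it, 12.1% as higher and 10.5% as lower, and none passed 2-fold, which 1.81% did. These were ARO2, at 1.33-fold (counting interval from 1.304 to 1.365), and ARO4, at 1.31-fold (from 1.26 to 1.36), and relative to ACT1, which was itself 0.42 above the median gene on the log2 scale, both were at or under 0. TRP4 was at 1.02-fold (from 0.990 to 1.05) between the controls. The other TRP genes were higher in byMM1736, with TRP2 at 1.20-fold (from 1.17 to 1.24) and TRP5 at 1.16-fold (from 1.14 to 1.19). TRP1 was at 1.14-fold (from 1.11 to 1.17) and TRP3 at 1.06-fold (from 1.03 to 1.09). The members had a median log2 ratio of 0.20, with 8 above the median gene, whereas relative to ACT1 every member was below 0.

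Between byMM1832 and byMM1827, 3 of the 10 members passed 1.3-fold, where 27.5% of the genes were past it, 11.6% as higher and 15.8% as lower, and none passed 2-fold, which 4.28% did. ARO4 was 1.39-fold higher in byMM1832 (counting interval from 1.35 to 1.44), ARO3 was 1.37-fold higher (from 1.33 to 1.42), and TRP4 was at 0.661 (from 0.638 to 0.686). ARO2 was just inside the limit, at 1.29-fold. The other members lay between 1.03-fold and 1.18-fold. The 4 genes from DAHP synthase to chorismate (ARO1 to ARO4) had a median log2 ratio of 0.41, while the 5 TRP genes had a median of 0.10. The middle 50% of all genes lay from -0.24 to 0.21. This comparison uses the same libraries as the pairs, so its values are not independent of the other comparisons. Between the controls, byMM1736 over byMM1777, ARO2 and ARO4 had log2 ratios of 0.42 and 0.39.

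The targets of the ScRNAs were compared with the promoter windows of the members behind the PAM of each Cas protein, a comparison chosen after the expression values had been seen. The HED1 target had 0 mismatches in the window of HED1 and the GAL7 target 0 in the window of GAL7. In the window of TRP4 the closest match of either target of byMM1832 had 10 mismatches. Of all promoters, 13% had 10 or fewer to the GAL7 target and 20.6% to the reporter target. Over all members and targets the closest was the window of ARO4, where the HED1 target of byMM1827 had 8 mismatches, a number reached or undercut in 0.847% of all promoters. That share is for the HED1 target alone, while the window was picked as the closest of all members and targets. Binding of a ScRNA to these windows was not tested. ARO4 had a ratio of 0.999 relative to the median gene (counting interval from 0.962 to 1.04) between byMM1827 and byMM1777.

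Around the members, 26 further genes of aromatic amino acid metabolism were followed in the same comparisons. Of these, 3 passed 1.3-fold as higher and 0 as lower between byMM1827 and byMM1777, and 4 as higher and 1 as lower between byMM1832 and byMM1736. The shares of all genes were 10.9% and 7.75% in the first pair and 11.1% and 15.2% in the other. Their median log2 ratios were 0.03 and 0.22. Between the controls, byMM1736 over byMM1777, 4 were past 1.3-fold as higher and 0 as lower, where 12.1% and 10.5% of all genes were. Between byMM1832 and byMM1827 6 were higher and 1 was lower, where 11.6% and 15.8% of all genes were. In the phenylalanine and tyrosine branch, TYR1 (prephenate dehydrogenase) was at 0.04 on the log2 scale between byMM1827 and byMM1777 and at 0.34 between byMM1832 and byMM1736, and PHA2 (prephenate dehydratase) at 0.07 and 0.23. The aromatic aminotransferase gene ARO8 had 217 TPM in byMM1827 against 300.2 TPM in byMM1777, and 321 TPM in byMM1832 against 239 TPM in byMM1736, so that its log2 ratios were -0.31 and 0.39. ARO9, the other aromatic aminotransferase gene, was at 0.02 and 0.27. Between byMM1832 and byMM1827 both were past 1.3-fold as higher, ARO8 at 1.51-fold and ARO9 at 1.43-fold.

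ARO10, phenylpyruvate decarboxylase of the Ehrlich pathway, had 195 TPM in byMM1827 against 157 TPM in byMM1777, and 187 TPM in byMM1832 against 198 TPM in byMM1736. It was 1.39-fold higher relative to the median gene between byMM1827 and byMM1777 (counting interval from 1.36 to 1.42) and at 0.924 between byMM1832 and byMM1736 (from 0.905 to 0.943). Its low library was byMM1777, and the other 3 were within 187 to 198 TPM. ARO80, the activator of ARO9 and ARO10, had from 15.5 to 19.6 TPM, with log2 ratios of 0.11 and 0.31. GCN4 had 838 TPM in byMM1827 against 835 TPM in byMM1777, and 871 TPM in byMM1832 against 1098 TPM in byMM1736. Its level was thus highest in the dCas12e control, 1.53-fold higher relative to the median gene than in byMM1777, and since GCN4 is mainly controlled at translation, its transcript is not a measure of Gcn4 activity. The permease genes TAT1 and TAT2 were within 0.05 of the median gene on the log2 scale between byMM1827 and byMM1777 and at 0.11 and 0.08 between byMM1832 and byMM1736.

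The kynurenine pathway, which uses tryptophan to make NAD, was followed through 7 BNA genes. Between byMM1827 and byMM1777, BNA7 (kynurenine formamidase) was 1.60-fold higher relative to the median gene (counting interval from 1.42 to 1.80) and BNA6 (quinolinate phosphoribosyltransferase) 1.47-fold (from 1.433 to 1.499). Relative to byMM1777 these genes were also higher in the other control, byMM1736, at 1.59-fold for BNA7 and 1.44-fold for BNA6, so that byMM1777 was the low library. Between byMM1832 and byMM1736 the genes past 1.3-fold were BNA4 (kynurenine monooxygenase), at 1.36-fold (from 1.31 to 1.42), and BNA3 (kynurenine aminotransferase), at 1.31-fold (from 1.28 to 1.34). BNA5 (kynureninase) was just under the threshold in that pair and 1.46-fold higher in byMM1832 than in byMM1827, as was BNA4 at 1.40-fold. BNA2, the dioxygenase of the first step, was at log2 ratios of 0.20 and 0.12. The median log2 ratios of the list were 0.20 and 0.23.

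Among the 8 genes that supply erythrose 4-phosphate and phosphoribosyl pyrophosphate, TKL2 stood apart. This minor transketolase gene had 160 TPM in byMM1827 against 149 TPM in byMM1777, and 33.4 TPM in byMM1832 against 111 TPM in byMM1736. It was at 0.293 relative to the median gene between byMM1832 and byMM1736 (counting interval from 0.282 to 0.305), and the one gene of the 26 past 2-fold, which 3.44% of all genes were. The major transketolase gene TKL1 had 823 TPM in byMM1832 against 627 TPM in byMM1736, a log2 ratio of 0.36, and was 1.43-fold higher in byMM1832 than in byMM1827. ABZ2, aminodeoxychorismate lyase of a further use of chorismate, was 1.39-fold higher between byMM1832 and byMM1736 (from 1.31 to 1.47), and at 0.925 between byMM1827 and byMM1777 (from 0.871 to 0.981).

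**Figure D4:**
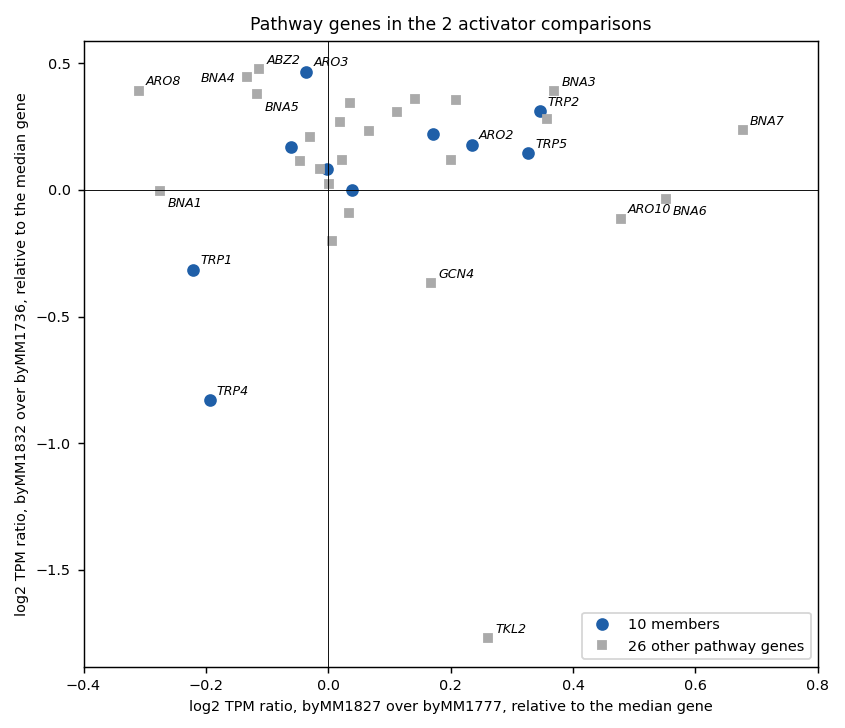
Log2 TPM ratios relative to the median gene for the denAsCas12a pair (horizontal axis) and the dCas12e pair (vertical axis), for the 10 members (circles) and 26 other pathway genes (squares). TRP4 and TRP1 are the members below 0 on both axes beyond their intervals, and TKL2 lies lowest, at -1.77 on the vertical axis.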

How the data were processed

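RNA-seq of 4 yeast strains, with 1 library each, was analysed from 2 tables. The authors deposited whole-number counts of reads per gene without normalization, and TPM, for which the authors corrected for gene length and brought each library to about the same sum. The submitters' processing notes list FastQC, Trimmomatic, HISAT2, bedtools, StringTie and DESeq2, with no roles. The genome build is not given in the sources used here, but the lengths implied by counts and TPM match those of R64 to within 2 bases for the members. Both tables also hold 2 columns of other strains, which were not used. The deposited tables of comparisons hold the authors' mean TPM, fold changes, p-values and q-values, and were not used.

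TPM ratios were taken relative to the median of the 6010 genes that averaged 10 or more counts. A library at or under 3 counts was set at 3 counts, which concerned none of the genes named. Intervals are 95% Clopper-Pearson intervals of the 2 counts. Those of the difference between the pairs are instead 95% Wald intervals from the counts of the 4 libraries, and they too cover counting error only. Since there are no replicates, no model was fitted and the planned comparisons were descriptive, with thresholds of 1.3-fold and 2-fold. Genes overlapping a member would have been named, but the RefSeq annotation holds none. Of the gene identifiers, 6017 matched RefSeq. The members, lists and rules were chosen with earlier results of these data known. Named were all members, the main genes of each list and other list members past 1.3-fold in a comparison.

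Alternatives were deposited TPM without centring, counts per total count, TMM factors (edgeR 4.0.16), median-ratio factors (DESeq2 1.42.0), TPM relative to ACT1, 1 TPM added, other filters, intervals lying wholly past 1.3-fold, a 1.5-fold threshold, the mean of the members, and leaving out TRP1. Calculations used R 4.3.3 and Python 3.11.15 (scipy 1.17.1, pandas 2.3.3, numpy 2.4.6, matplotlib 3.10.9). They were tested on simulated counts.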

Additional observations from a re-analysis of the deposited data

Results flagged for a closer look

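None of the 10 members lay on opposite sides of the median gene in the 2 pairs with both counting intervals clear of it and 1 of them past 1.3-fold. Only TRP4 and ARO3 could have met this rule, since no other member passed 1.3-fold in either pair. Of the 26 other pathway genes, 6 did so, against 9.04% of all genes, which was read from 1 library per strain, and the difference was not tested. The difference of the log2 ratios (dCas12e pair minus denAsCas12a pair) was 0.70 for ARO8, 0.59 for ABZ2 and 0.58 for BNA4, which, relative to the median gene, were higher in byMM1832 than in byMM1736 and lower in byMM1827 than in byMM1777. It was -0.59 for ARO10, -0.59 for BNA6 and -2.03 for TKL2, which went the opposite way.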

How the results depend on the processing

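The direction reported for TRP4 in the dCas12e pair was kept under every scaling and filter tried, from -0.89 (relative to ACT1) to -0.80 (deposited TPM), whereas ratios near the median gene depended on the scaling. A model with pair and ScRNA as terms, which would leave 1 residual degree of freedom, was not fitted. Without centring, the deposited TPM gave 1 member past 1.3-fold and a median log2 ratio of the members of -0.14 in the denAsCas12a pair, a median of 0.19 in the dCas12e pair, and 1 member and a median of -0.014 between the controls. Counts per total count gave medians of -0.13 in the denAsCas12a pair and 0.023 between the controls, where 0 members then passed. Relative to ACT1, 5 members passed in the denAsCas12a pair, all lower, 3 in the dCas12e pair (1 higher, 2 lower, TRP1 among them at -0.38), 3 between the controls, all lower, and 1 between the strains with ScRNAs, and the medians were -0.36 in the denAsCas12a pair, -0.22 between the controls, 0.093 for byMM1832 over byMM1736 and 0.067 between the strains with ScRNAs. ACT1 scaling changed the sign of 16 of the 40 member values over all comparisons. Between the controls every member was then below 0. This included ARO4 (-0.033) and ARO2 (-0.0027), which had passed 1.3-fold as higher, as well as TRP2 (-0.15) and ARO1 (-0.17). With 1 TPM added, or with intervals wholly past 1.3-fold, 1 member passed between the controls. A threshold of 1.5-fold left 1 member in the dCas12e pair, 0 between the controls and 1 between the strains with ScRNAs. The mean of the members was 0.043 in the dCas12e pair and 0.16 between the controls, and without TRP1 the median between the strains with ScRNAs was 0.22. The members' counts of at least 1067 leave little counting error, so that the precision is limited by the single library per strain.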

Other observations

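The genes next to the members on the chromosome were read after the values of the members had been seen. Downstream of TRP4, SPC110 (spindle pole body) had 3.08 TPM in byMM1827 against 4.52 TPM in byMM1777, and 2.60 TPM in byMM1832 against 4.37 TPM in byMM1736, with log2 ratios relative to the median gene of -0.39 and -0.78. Upstream, TRR1 (thioredoxin reductase) was at -0.01 and 0.10. Beside TRP1, SOK1 was at -0.36 and -0.29, and GAL3 at 0.31 and -0.15. MET6, next to TRP2 and encoding methionine synthase, was at 0.55 and -0.60, while TRP2 was at 0.35 and 0.31. PTC2, on the other side of TRP2, was at 0.02 and -0.61. Beside ARO7, which was at -0.06 and 0.17, JID1 was at 0.17 and -0.67 and YMC1 at 0.44 and 0.01. Neighbours of the other members, and counting intervals for neighbours, are not given here.

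The summed TPM of ARO3 and ARO4 was 205 in byMM1827 against 232 in byMM1777, and 278 in byMM1832 against 226 in byMM1736. The summed TPM of the 10 members was 1570 in byMM1827 against 1677 in byMM1777, and 1742 in byMM1832 against 1668 in byMM1736. Among the other plasmid markers, LEU2 had log2 ratios of 0.33 and 0.37 in the 2 pairs and URA3 of -0.16 in both, beside -0.22 and -0.32 for TRP1.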
